A study of Mus musculus with 8 samples.

Results

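Transcripts of 9 transcription factors of pancreatic acinar identity (Ptf1a, Rbpjl, Bhlha15, Nr5a2, Foxa2, Foxa3, Onecut1, Creb3l1 and Pdx1) were followed in whole mouse pancreas. They were chosen by gene symbol, and each matched 1 of the 36432 gene IDs in the deposited tables. Poly(A) RNA of 8 pancreases from mice aged 6 to 8 weeks, of mixed strain, had been sequenced. The 4 libraries labelled Gata6-deleted came from mice with a Cre recombinase knocked in at 1 Ptf1a allele (Ptf1a-Cre +/KI) and with both Gata6 alleles floxed (Gata6 lox/lox). The 4 control libraries came from mice with the same Cre insertion, whose label names no floxed Gata6. All 8 animals therefore had 1 Ptf1a allele occupied by Cre, and Ptf1a was measured here against that background. Cre driven from Ptf1a acts from the pancreatic progenitor onwards, and reaches the epithelial cells that descend from it. Which cells of these pancreases had recombined was not measured. The comparison asks how the regulators of the acinar state stood in the pancreas of mice in which Gata6 had been targeted.

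Acinar cells make and secrete the digestive enzymes. Their state is held by a small network of DNA-binding proteins: PTF1A pairs with a common E-protein and with RBPJL to form the trimeric PTF1 complex on enzyme genes, NR5A2 works beside it, and BHLHA15 (MIST1) and CREB3L1 build the secretory machinery. FOXA2, FOXA3, ONECUT1 and PDX1 act earlier, in the foregut and pancreatic progenitors, and PDX1 is later strongest in beta cells. Gata6 encodes a zinc finger protein of the same developmental programme that binds GATA motifs.

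Gata6 itself was measured first, because it checks the labels. Its level was 4.81, 5.12, 4.90 and 4.12 rescaled FPKM in labelled libraries 1 to 4, against 2.76, 2.12, 2.62 and 2.45 in controls 1 to 4. FPKM is defined as fragments per length of transcript and per library size. A rescaled FPKM is the deposited value over 100000, the same divisor for every library, which brings the deposited numbers to the usual size. Gata6 was thus higher, not lower, in each labelled library (log2 fold change 0.72, limma, Benjamini-Hochberg adjusted p = 0.0443). A value per gene does not resolve the floxed part, so it does not show the deletion, and the name "labelled library" is kept throughout. Fragments implied by the deposited intervals summed to 4811660 to 7420240 in the labelled libraries and 6016830 to 7299520 in the controls, and genes above 0 numbered 19684 to 23024 in the labelled libraries and 18345 to 19729 in the controls. Deposited FPKM summed to 2.34e+10, 8.28e+10, 6.80e+10 and 1.30e+11 in labelled libraries 1 to 4. In the controls they summed to 1.42e+11 to 1.86e+11. For Ptf1a, 1 rescaled FPKM stood for 43.7 implied fragments in labelled library 1 and 9.5 to 14.3 in the controls. The deposited levels were therefore not on a common scale of library size. Titles of labelled libraries 1, 3 and 4 and of control 1 began with BKD, that of labelled library 2 with BSH and those of controls 2 to 4 with ASK, so that the title prefix and the genotype were partly confounded. Labelled libraries 1 and 3 stood apart in their digestive enzymes: the summed level of 20 enzyme genes came to 9399 rescaled FPKM in labelled library 1, 303706 in 2, 81092 in 3 and 382788 in 4, while no control was under 507262 or over 717259. The fold change of each factor is given with and without labelled libraries 1 and 3.

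The sequence just before the start of the factor genes is shown because PTF1, BHLHA15 and GATA6 bind motifs that can be read in it, and because several of the factors are known to bind near each other's genes. RefSeq (assembly GRCm38.p6) gave 11 windows of 250 bases for 8 of the 9 factors, and Creb3l1 had none. The windows of 5 factors are printed 5′ to 3′ on the strand of the gene. Capitals mark the E-box CANNTG (bound by basic helix-loop-helix proteins such as PTF1A and BHLHA15), TGGGAA (the core letters bound by RBPJ and RBPJL) and the GATA motifs AGATAA and TGATAA, each on either strand. The window of Ptf1a is chr2:19445413-19445662 on the plus strand, that of Rbpjl chr2:164402944-164403193 on the plus strand, that of Bhlha15 chr5:144190036-144190285 on the plus strand, that of Nr5a2 (the more upstream of its 2 starts) chr1:136960449-136960698 on the minus strand and that of Foxa3 chr7:19023540-19023789 on the minus strand.
Ptf1a: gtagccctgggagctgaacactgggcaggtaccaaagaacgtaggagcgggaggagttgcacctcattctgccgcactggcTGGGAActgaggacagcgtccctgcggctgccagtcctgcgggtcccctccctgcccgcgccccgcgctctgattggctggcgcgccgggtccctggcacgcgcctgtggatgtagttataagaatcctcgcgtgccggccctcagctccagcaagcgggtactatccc
Rbpjl: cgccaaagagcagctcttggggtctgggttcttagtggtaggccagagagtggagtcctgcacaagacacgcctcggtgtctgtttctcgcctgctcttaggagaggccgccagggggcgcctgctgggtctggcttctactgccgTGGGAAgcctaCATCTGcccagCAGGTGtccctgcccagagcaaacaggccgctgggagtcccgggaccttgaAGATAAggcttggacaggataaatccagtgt
Bhlha15: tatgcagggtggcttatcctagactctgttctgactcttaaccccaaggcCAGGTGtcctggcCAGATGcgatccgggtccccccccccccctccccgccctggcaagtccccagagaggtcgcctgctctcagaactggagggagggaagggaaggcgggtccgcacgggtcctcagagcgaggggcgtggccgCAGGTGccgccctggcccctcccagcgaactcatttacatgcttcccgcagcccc
Nr5a2: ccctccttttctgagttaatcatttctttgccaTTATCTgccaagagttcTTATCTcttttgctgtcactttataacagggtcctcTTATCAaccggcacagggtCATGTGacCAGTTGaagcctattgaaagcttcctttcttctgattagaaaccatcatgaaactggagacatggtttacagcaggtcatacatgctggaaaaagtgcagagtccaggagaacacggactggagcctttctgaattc
Foxa3: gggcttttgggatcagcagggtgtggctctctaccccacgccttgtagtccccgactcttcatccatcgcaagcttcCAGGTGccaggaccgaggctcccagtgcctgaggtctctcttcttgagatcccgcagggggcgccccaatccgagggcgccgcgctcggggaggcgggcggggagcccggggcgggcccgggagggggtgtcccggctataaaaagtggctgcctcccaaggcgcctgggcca

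Rbpjl held the one composite of the set. An E-box and TGGGAA lie in it 5 bases apart in the order bound by the PTF1 trimer (TGGGAAGCCTACATCTG, 104 to 88 bases before the start), so the E-box is part of both motifs. The composite (CANNTG, any 5 bases, then TTCCCA, on either strand) was present in 34 of all 32851 windows of this length (0.103%). Ptf1a held TGGGAA without an E-box, 169 to 164 bases before its start, where 21.6% of all windows held TGGGAA. Bhlha15 held 3 E-boxes, 200 to 195, 187 to 182 and 55 to 50 bases before its start. An E-box was present in at least 1 window of 7 of the 8 factors, Ptf1a being the exception, and in 66.2% of all single windows. A factor with several windows counts if any of them holds the motif, so these shares are not in like units. Foxa2 held an E-box only in window 3. AGATAA or TGATAA was present, counted in the same unlike units, for 3 factors (Rbpjl, Nr5a2 and Foxa2) and in 16.6% of all single windows. Foxa2 again held it only in window 3. Nr5a2 held 3 such motifs between 217 and 159 bases before its start. These matches describe letters in the window and not binding.

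In control pancreas the 9 factors fell into 5 levels, which FPKM allows to be compared because it is per length of transcript. Bhlha15 and Rbpjl were highest, with 60.3 ± 10.5 and 52.2 ± 13.6 rescaled FPKM (SD, n = 4), and their ranges over the controls overlapped. Ptf1a and Creb3l1 came next, with 11.3 ± 1.38 and 10.1 ± 2.60 and again overlapping ranges. Foxa3, Foxa2 and Nr5a2 followed at 5.62 ± 0.91, 5.05 ± 0.91 and 4.93 ± 0.68 and could not be ordered beyond their spread. Pdx1 averaged 1.36 ± 0.40 and Onecut1 0.530 ± 0.20, and each of these was separated from the factor above it in all 4 controls. In the labelled libraries Rbpjl ranked first of the 9 factors in every library. Bhlha15, which ranked the first or second in all 4 controls, ranked the second in labelled libraries 2 and 4, the third in labelled library 3 and the last in labelled library 1.

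**Figure D1:**
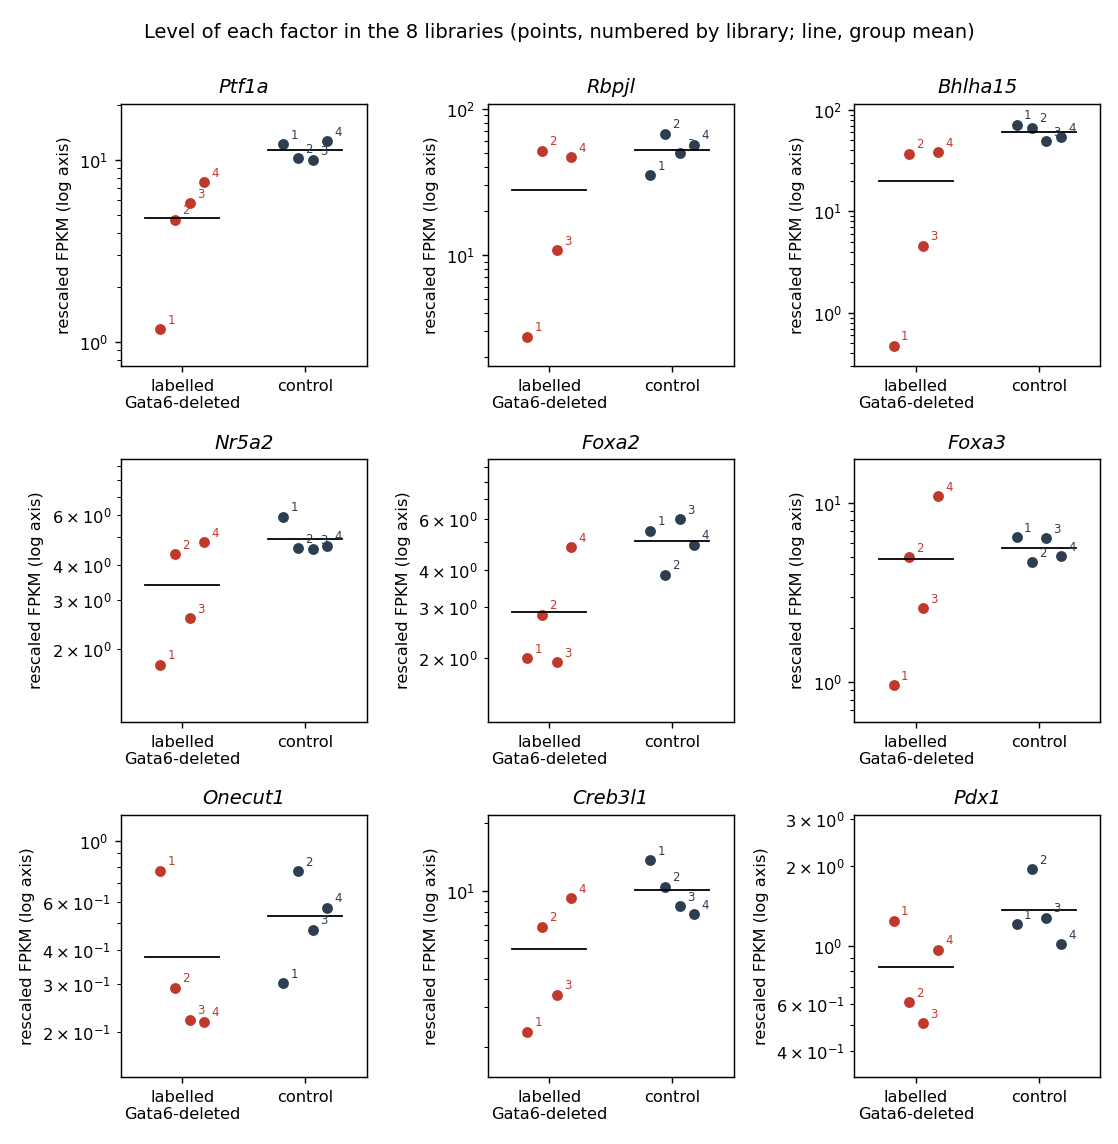
Level of each of the 9 factors in the 8 libraries, in rescaled FPKM on log axes, with labelled Gata6-deleted libraries on the left and controls on the right; points are single libraries with their numbers and lines are group means. The labelled points of Ptf1a and Bhlha15 all lie below the control points, and labelled library 1 is the lowest point for 6 factors but the highest labelled point for Onecut1 and Pdx1.

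Ptf1a, the DNA-binding core of the PTF1 complex (ENSMUSG00000026735, mm9 chr2:19367290-19369128), was below every control in every labelled library. Its level was 1.18, 4.71, 5.82 and 7.58 rescaled FPKM in labelled libraries 1 to 4, against 12.2, 10.3, 9.96 and 12.7 in controls 1 to 4. The mean was 4.82 ± 2.70 in the labelled libraries and 11.3 ± 1.38 in the controls (SD, n = 4 each), so that the labelled mean was 42.7% of the control mean. The log2 fold change, on the scale of log2(rescaled FPKM + 1), was -1.24 (SE 0.39), and the adjusted p over all genes was 0.114 in limma. The groups thus did not overlap, yet the difference did not pass at 0.05. Without labelled libraries 1 and 3 the log2 fold change was -0.80 (limma adjusted p = 0.228). Each Ptf1a value rested on 51.5 to 235 implied fragments, the most of them in labelled library 3. Gm13336 overlaps Ptf1a and reached at most 0.487 rescaled FPKM.

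Rbpjl, the pancreas-specific partner of PTF1A in the adult complex (ENSMUSG00000017007, mm9 chr2:164228641-164240948), split the labelled libraries. Labelled libraries 1 to 4 had 2.76, 51.6, 10.8 and 46.7 rescaled FPKM, against 35.0, 67.5, 49.8 and 56.6 in controls 1 to 4. Labelled libraries 2 and 4 lay inside the control range, and labelled libraries 1 and 3 far below it. The mean was 28.0 ± 24.8 in the labelled libraries and 52.2 ± 13.6 in the controls (SD, n = 4 each), with a log2 fold change of -1.50 (SE 0.80, limma adjusted p = 0.222). Without labelled libraries 1 and 3 the log2 fold change was -0.05 (limma adjusted p = 0.963). Matn4, which overlaps Rbpjl over 2020 bases, was between 1.12 and 6.36 rescaled FPKM.

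Bhlha15, the regulator of secretory cell architecture (ENSMUSG00000052271, mm9 chr5:144951155-144955310), had the widest range of the 9. Its level was 0.476, 36.9, 4.57 and 38.4 rescaled FPKM in labelled libraries 1 to 4, against 71.6, 66.6, 49.3 and 54.0 in controls 1 to 4. All 4 labelled libraries were below all 4 controls, and they reached 0.788%, 61.2%, 7.58% and 63.7% of the control mean. The highest labelled library exceeded the lowest by 80.8-fold, and the highest control exceeded the lowest by 1.45-fold. The mean was 20.1 ± 20.4 in the labelled libraries and 60.3 ± 10.5 in the controls (SD, n = 4 each). Its log2 fold change of -2.53 (SE 0.99) was lower than that of all but 0.548% of the genes tested, and the adjusted p in limma was 0.141. Even the lowest value rested on 55.0 implied fragments. Without labelled libraries 1 and 3 the log2 fold change was -0.65 (limma adjusted p = 0.252).

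Nr5a2, a nuclear receptor that works with PTF1 on enzyme genes (ENSMUSG00000026398, mm9 chr1:138740161-138857004), was lower in 3 of 4 labelled libraries than in any control. Labelled libraries 1 to 4 had 1.75, 4.35, 2.58 and 4.81 rescaled FPKM, against 5.94, 4.57, 4.53 and 4.67 in controls 1 to 4. Labelled library 4 was above 3 of the controls, and labelled library 2 only just below them. The mean was 3.37 ± 1.45 in the labelled libraries and 4.93 ± 0.68 in the controls (SD, n = 4 each; log2 fold change -0.50, SE 0.24, limma adjusted p = 0.196). The difference was mostly that of labelled libraries 1 and 3, without which the log2 fold change was -0.08 (limma adjusted p = 0.837).

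Creb3l1, a membrane-bound factor of the secretory pathway that is released by proteolysis (ENSMUSG00000027230, mm9 chr2:91815044-91864659), was also below every control in 3 of 4 labelled libraries. Its level was 2.33, 6.88, 3.41 and 9.23 rescaled FPKM in labelled libraries 1 to 4, against 13.6, 10.4, 8.52 and 7.83 in controls 1 to 4. The exception, labelled library 4, lay inside the control range. The mean was 5.46 ± 3.17 in the labelled libraries and 10.1 ± 2.60 in the controls (SD, n = 4 each; log2 fold change -0.89, SE 0.36, limma adjusted p = 0.146), and without labelled libraries 1 and 3 the log2 fold change was -0.28 (limma adjusted p = 0.657). Dgkz, which overlaps Creb3l1 over 978 bases, had 10.9 to 14.1 rescaled FPKM in the labelled libraries and 8.01 to 11.9 in the controls, and the groups overlapped.

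Foxa2 and Foxa3 are forkhead factors of the foregut and its organs. Foxa2, which opens chromatin in foregut tissues (ENSMUSG00000037025, mm9 chr2:147868613-147872782), had 2.01, 2.82, 1.94 and 4.80 rescaled FPKM in labelled libraries 1 to 4, against 5.47, 3.86, 5.99 and 4.90 in controls 1 to 4. Labelled libraries 1 to 3 were below every control and labelled library 4 was within the control range (log2 fold change -0.68, SE 0.23, limma adjusted p = 0.122), and without labelled libraries 1 and 3 the log2 fold change was -0.35 (limma adjusted p = 0.562). Foxa3 (ENSMUSG00000040891, mm9 chr7:19598631-19608887) had 0.962, 4.96, 2.59 and 10.9 in labelled libraries 1 to 4, against 6.44, 4.66, 6.36 and 5.02 in controls 1 to 4. Its labelled values lay on both sides of the controls: labelled libraries 1 and 3 below all of them and labelled library 4 above all of them. The log2 fold change of Foxa3 was -0.48 (SE 0.48, limma adjusted p = 0.495), and without labelled libraries 1 and 3 it was 0.36 (limma adjusted p = 0.647).

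Pdx1 and Onecut1, factors of the progenitor and of other adult pancreatic cells, were low everywhere. Pdx1 (ENSMUSG00000029644, mm9 chr5:148081707-148086725) had 1.24, 0.610, 0.509 and 0.963 rescaled FPKM in labelled libraries 1 to 4, against 1.20, 1.94, 1.27 and 1.01 in controls 1 to 4, from 9 to 53 implied fragments each. On the deposited scale labelled libraries 2, 3 and 4 were below every control, while labelled library 1, the lowest for most other factors, was inside the control range (log2 fold change -0.37, SE 0.20, limma adjusted p = 0.239). Without labelled libraries 1 and 3 the log2 fold change was -0.39 (limma adjusted p = 0.416). With libraries scaled to implied fragment totals, the log2 ratio of Pdx1 to its control mean was 2.32, -0.21, 0.36 and -0.03 in labelled libraries 1 to 4. In the controls it was -0.45 to 0.44. Onecut1 (ENSMUSG00000043013, mm9 chr9:74709728-74737591) had 0.779, 0.291, 0.221 and 0.218 in labelled libraries 1 to 4, against 0.301, 0.775, 0.473 and 0.569 in controls 1 to 4. Its mean was under the minimum of 1 set for testing, and its 0.989 to 20.4 implied fragments cannot order the libraries (log2 fold change -0.16, and -0.28 without labelled libraries 1 and 3). Gm16551 spans all of Onecut1 and was listed higher than it in each of the 8 libraries, so the assignment of reads between them is uncertain. In labelled library 1 the 18 islet markers, hormone genes included, summed to 5995 rescaled FPKM, against 767 to 1499 in the other labelled libraries and 563 to 1485 in the controls. Their part in the level of Pdx1 was not tested.

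Over the 9 factors the differences ran in 1 direction on the deposited scale but passed no test. All 9 log2 fold changes were below 0 on that scale, as were those of 42.1% of all 11860 genes tested, although 5 turned positive when libraries were scaled to equal sums outside the digestive enzymes and 6 when they were scaled to implied fragment totals. The median over the 9 was -0.68, against 0.10 over all genes tested, and without labelled libraries 1 and 3 it was -0.28. None of the 8 factors tested passed at an adjusted p of 0.05 in limma, where 0.194% of genes passed as lower and 0.219% as higher. With library weights in limma 6 of them passed as lower, where 12.5% of all genes did, and without labelled library 4 there were 3, where 10.1% did. With limma's unadjusted p under 0.05, 4 factors were lower (Ptf1a, Bhlha15, Foxa2 and Creb3l1), against 12.2% of all genes. For 2 of the 9 factors every labelled library was below every control, against 7.62% of all genes tested, and for none was every labelled library above every control, against 10.9%. For 7 of the 9, at least 3 labelled libraries were below every control, against 20.6% of all genes. Because nothing says how the animals were related or handled, these p-values measure only the spread between the 8 libraries. In bulk tissue, fewer acinar cells and less RNA of a factor per acinar cell cannot be told apart.

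The order among the factors was read within each labelled library, as the log2 ratio of its level to the control mean. In labelled library 1 it ran from Bhlha15 (-6.99) through Rbpjl (-4.24), Ptf1a (-3.26), Foxa3 (-2.55), Creb3l1 (-2.12), Nr5a2 (-1.49) and Foxa2 (-1.33) to Pdx1 (-0.13) and Onecut1 (0.56). Labelled library 3 had the same first and second factors, Bhlha15 (-3.72) and Rbpjl (-2.27), and the other 7 lay between -1.57 (Creb3l1) and -0.94 (Nr5a2), with Ptf1a at -0.96. The secretory regulator and the PTF1 partner were thus furthest below the controls in these libraries, and Ptf1a ranked 3 of 9 in labelled library 1 and 8 of 9 in labelled library 3. In labelled library 2 Ptf1a was furthest down (-1.26), Bhlha15 stood at -0.71 and Rbpjl at -0.02, the least of the 9. In labelled library 4 Bhlha15 (-0.65) and Ptf1a (-0.57) came after Onecut1 (-1.28), which rested on about 1 fragment, and Rbpjl stood at -0.16. Each labelled library therefore had its own order. Bhlha15 was among the 2 lowest in 3 of 4 libraries and Rbpjl in 2 of 4. On the deposited scale labelled library 1 had a median ratio of -2.12 over the 9 factors and labelled library 2 of -0.71. Labelled library 3 had one of -1.38 and labelled library 4 of -0.16, while the controls lay between -0.12 and 0.12. These distances from the controls depend on the scale. At implied totals Creb3l1 was 0.35, 0.41, 0.24 and 0.36 in labelled libraries 1 to 4, and Bhlha15 -4.54, 0.23, -1.94 and -0.18.

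**Figure D2:**
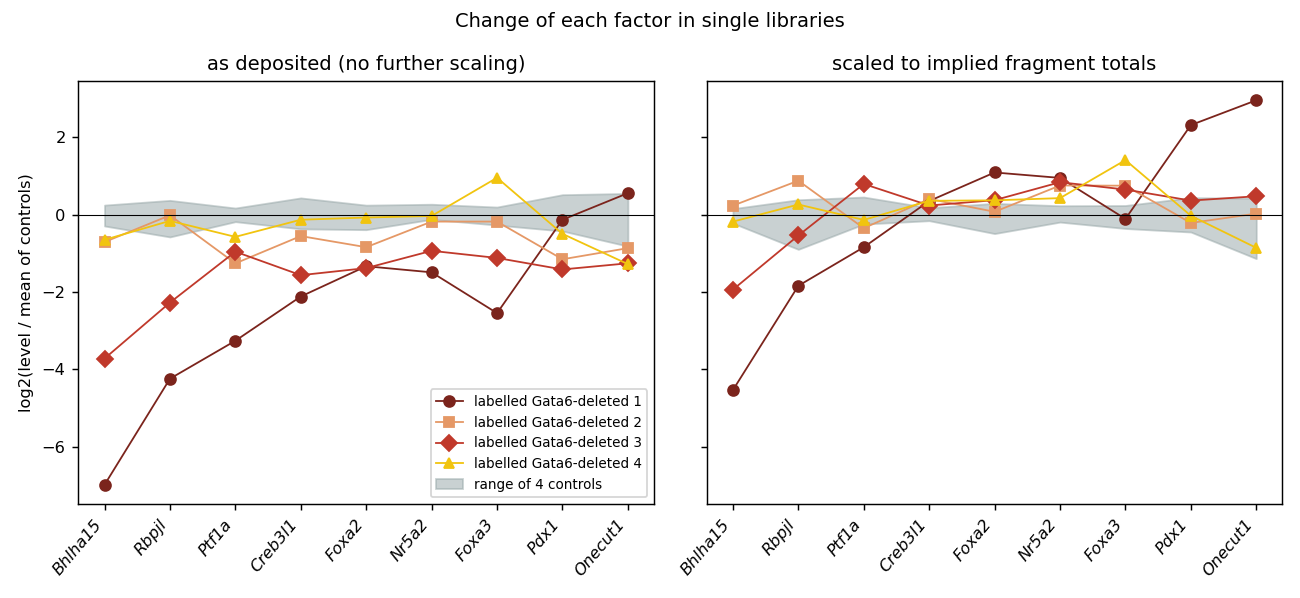
Log2 ratio of each factor to its control mean in labelled libraries 1 to 4 (lines, named in the legend), with the range of the 4 controls shaded; the left panel uses the deposited values and the right panel the same values scaled to the fragment totals implied for each library. In both panels Bhlha15 is the lowest factor of labelled libraries 1 and 3, at -6.99 and -3.72 on the left and -4.54 and -1.94 on the right.

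The direction of several factors depended on how the libraries were put on a common scale. Enzyme transcripts make up much of a pancreas library and differed between the libraries, as given above. Scaling to an equal sum outside the digestive enzymes moved the median log2 fold change of all genes tested to 0.86, and scaling to the implied fragment totals moved it to 1.15. Under these scalings the median over the 9 factors was 0.10 and 0.36, and no factor was below every control in every labelled library, where 0.337% (equal sums) and 0.371% (implied totals) of all genes were. At implied totals Nr5a2 and Creb3l1 were above every control in every labelled library, as were 52.6% of all genes. Ptf1a stayed negative under both, at -0.42 (limma adjusted p = 0.313) and -0.08 (0.841). Bhlha15 also stayed negative, at -1.74 (limma adjusted p = 0.113) and -1.41 (0.119), as did Rbpjl, at -0.57 (0.421) and -0.21 (0.716). Nr5a2, Foxa2, Foxa3, Onecut1 and Pdx1 turned positive under both scalings and Creb3l1 under the implied totals. A scaling moves all genes of a library alike apart from the pseudocount, which weighs most on genes of low level. The distance from the median gene should therefore depend on the scaling little, except for such genes. That distance was -0.78 for the median of the 9 factors as deposited, -0.76 at equal sums and -0.79 at implied totals, and each factor lay below the median gene. For the low factors it moved more. In the same order it was -0.26, -0.61 and -0.79 for Onecut1, and -0.47, -0.65 and -0.75 for Pdx1. At implied totals the single libraries also differed in sign: Ptf1a was -0.84, -0.35, 0.79 and -0.14 in labelled libraries 1 to 4, and Bhlha15 -4.54, 0.23, -1.94 and -0.18.

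Ratios of 2 factors within a library do not depend on the scale, so they compare the factors with each other. Among the 36 pairs, 3 had ratios that did not overlap between the groups, a smaller share than the 18.8% of all pairs of genes. All 3 involved Bhlha15. The log2 ratio of Bhlha15 to Nr5a2 was -1.88, 3.08, 0.83 and 2.998 in labelled libraries 1 to 4, against 3.59, 3.86, 3.44 and 3.53 in controls 1 to 4. That of Bhlha15 to Foxa3 was -1.02, 2.90, 0.82 and 1.82 in the labelled libraries, against 3.47, 3.84, 2.95 and 3.43 in the controls. That of Rbpjl to Bhlha15 was 2.54, 0.48, 1.24 and 0.28 in the labelled libraries, against -1.03, 0.02, 0.02 and 0.07 in the controls. Bhlha15 was thus lower relative to each of these 3 factors in every labelled library, by mean differences of -2.35 (Bhlha15 to Nr5a2), -2.29 (Bhlha15 to Foxa3) and 1.37 (Rbpjl to Bhlha15). The exact two-sided permutation p was 0.0286 for each, the smallest that 4 against 4 libraries can give, and 0.343 after Benjamini-Hochberg adjustment over the 36 pairs. Groups that do not overlap give this smallest p by construction, so it adds nothing to the lack of overlap. Without labelled libraries 1 and 3 the differences were smaller, at -0.57, -1.06 and 0.61. The ratio of Ptf1a to Rbpjl, the partners of PTF1, was -1.23, -3.45, -0.89 and -2.62 in the labelled libraries, against -1.52, -2.72, -2.32 and -2.16 in the controls, and overlapped (exact permutation p = 0.857). In labelled libraries 1 and 3 this ratio was above every control, and in labelled library 2 below every control.

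**Figure D3:**
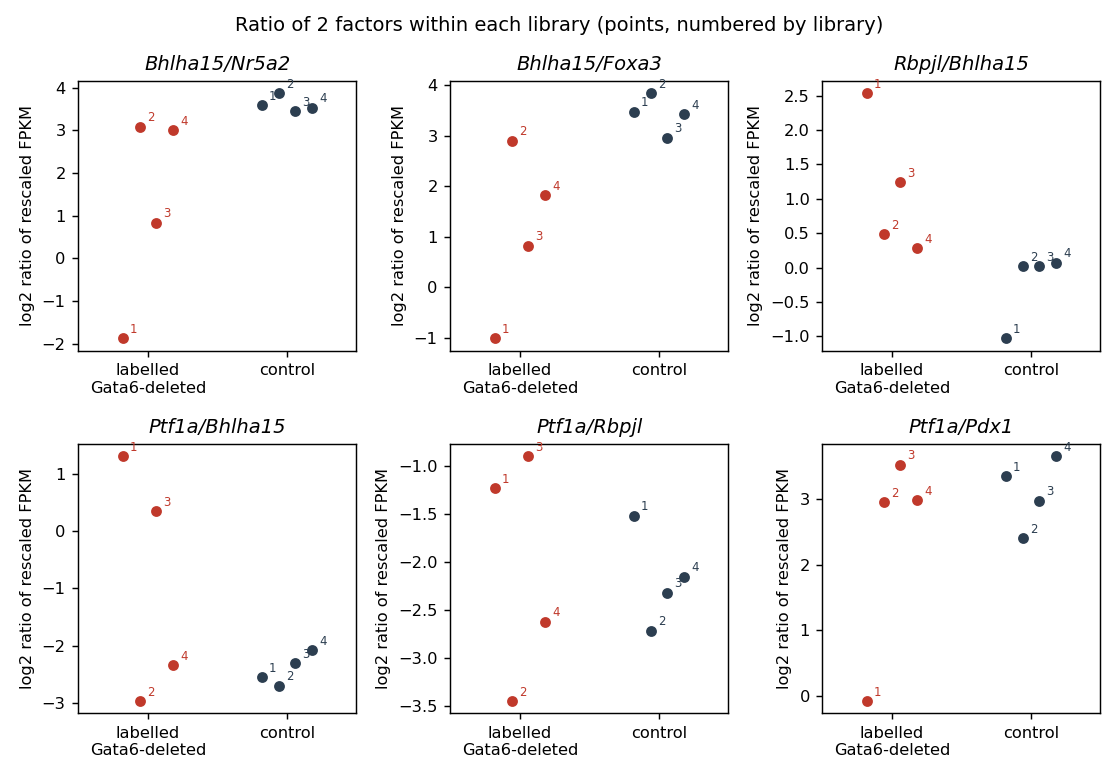
Log2 ratio of 2 factors within each library for 6 pairs, with labelled Gata6-deleted libraries on the left and controls on the right and each point numbered by library. In the upper row the groups do not overlap (Bhlha15 to Nr5a2, Bhlha15 to Foxa3, Rbpjl to Bhlha15); in the lower row, with Ptf1a over Bhlha15, Rbpjl and Pdx1, they do.

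The same scale-free ratio was taken of each factor to every other gene measured above 0 in all 8 libraries. The ratio of Ptf1a to another gene was below all controls in all labelled libraries for 58.4% of 11172 genes, and above them for 0.0716%. For Bhlha15 these shares were 56.8% and 0.0985%. The median gene had its ratio lower without overlap for 4.16% of the others, and the shares of Ptf1a and Bhlha15 exceeded those of 98.4% and 98.3% of all genes. Pdx1 was lower in this way relative to 27.4% of genes, Creb3l1 to 19.7%, Foxa2 to 18.7%, Nr5a2 to 16.3% and Onecut1 to 13.4%. Their ratios were higher without overlap for 0.143% (Pdx1), 0.734% (Creb3l1), 0.43% (Foxa2), 2.32% (Nr5a2) and 0.179% (Onecut1). Rbpjl, with its split labelled libraries, was lower relative to 8.15% and higher relative to 0.412%. Foxa3 was lower relative to 1.08%, under the share of the median gene, and higher relative to 1.58%. Of the 9 factors, Ptf1a and Bhlha15 thus had the largest shares on a measure that needs no scaling. The genes they were set against are not independent of each other.

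The title prefixes gave small subsets for these 2 factors. Among BKD titles (labelled libraries 1, 3 and 4 against control 1) the log2 fold change of Ptf1a was -1.40 and that of Bhlha15 -3.40. In the remaining libraries they were -1.06 and -0.59, but these set labelled library 2, of the BSH prefix, against controls 2 to 4, of the ASK prefix, so that prefix and genotype cannot be told apart there. Each subset has a single library in 1 group, and no test is read from it. An interaction of genotype and prefix would rest on the same single libraries, so it cannot decide whether the prefix matters for the factors.

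The DNA-binding partners and antagonists of PTF1A had log2 fold changes of the other sign. The list held Rbpj, the ubiquitous paralog of Rbpjl, the E-protein genes Tcf3, Tcf4 and Tcf12, and the Id genes, whose products sequester E-proteins. Of the 7 members tested, all had positive log2 fold changes and none passed (median 0.44, against 0.10 over all genes tested). Of all genes tested, 42.1% were below 0. All 7 were also positive under the other 4 scalings tried. At equal sums and implied totals that sign says little, because the median of all genes was itself 0.86 and 1.15. Rbpj was 10.1, 3.33, 7.06 and 2.40 rescaled FPKM in labelled libraries 1 to 4, against 2.57, 2.51, 2.45 and 2.39 in controls 1 to 4 (log2 fold change 0.79, limma adjusted p = 0.165). Labelled libraries 1 and 3, where Rbpjl was lowest, had the highest Rbpj, and labelled library 4 lay within the controls. Id2 and Id3 had log2 fold changes of 0.42 and 0.55 (limma adjusted p = 0.275 and 0.301).

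Genes described elsewhere as regulated by BHLHA15 were followed as a list. All 7 listed members had negative log2 fold changes, with a median of -1.52, and none passed. On the deposited scale 4 were below every control in every labelled library, against 7.62% of all genes tested. At equal sums outside the enzymes the median was -0.74 and at implied totals -0.43, with 6 of 7 negative under each. Tmed6, a membrane protein of the early secretory pathway, was 3.88, 204, 33.3 and 334 rescaled FPKM in labelled libraries 1 to 4, against 501, 410, 441 and 329 in controls 1 to 4 (log2 fold change -2.84, limma adjusted p = 0.157). Copz2, a coat protein of vesicles between Golgi and endoplasmic reticulum, had a log2 fold change of -1.64 (limma adjusted p = 0.128), and Rab3d, a small GTPase of zymogen granules, one of -1.36 (0.117). As with Bhlha15, labelled library 1 was lowest for each of these 3 genes and labelled library 3 next.

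The digestive enzymes, the shared targets of the network, had the lowest median of the lists on the deposited scale. After quantile normalization their median was -1.37, above the -1.50 of the genes listed as regulated by BHLHA15. Of 21 enzyme genes tested 19 had negative log2 fold changes (median -2.93), and none passed. On the deposited scale 13 were below every control in every labelled library, against 7.62% of all genes tested. At equal sums outside the enzymes the median was -1.92 and at implied totals -1.53, with 17 of 21 negative under each. Cela2a, Cela1 and Prss2, the members of highest level that could be tested, had log2 fold changes of -3.90, -4.23 and -2.11 (limma adjusted p = 0.137, 0.141 and 0.211). A further 8 enzyme genes lacked a value in 1 or more libraries and were left untested. On the deposited scale the labelled libraries ran from library 1 (lowest) through 3 and 2 to 4 by summed enzymes. Bhlha15, Nr5a2, Foxa3 and Creb3l1 followed the same order on that scale, as did the summed deposited FPKM. Ptf1a (lowest to highest 1, 2, 3, 4), Rbpjl (1, 3, 4, 2), Foxa2 (3, 1, 2, 4) and Pdx1 (3, 2, 4, 1) did not. An order between libraries depends on the scale. At implied totals the log2 ratio of Nr5a2 to its control mean was 0.95, 0.75, 0.84 and 0.43 in labelled libraries 1 to 4. That of Creb3l1 was 0.35, 0.41, 0.24 and 0.36 and that of Bhlha15 -4.54, 0.23, -1.94 and -0.18. Only Foxa3, at -0.11, 0.75, 0.65 and 1.41, kept the order given above. In labelled library 3 the enzymes were lower than in labelled library 2, while Ptf1a was 5.82 in labelled library 3 and 4.71 in labelled library 2.

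**Figure D4:**
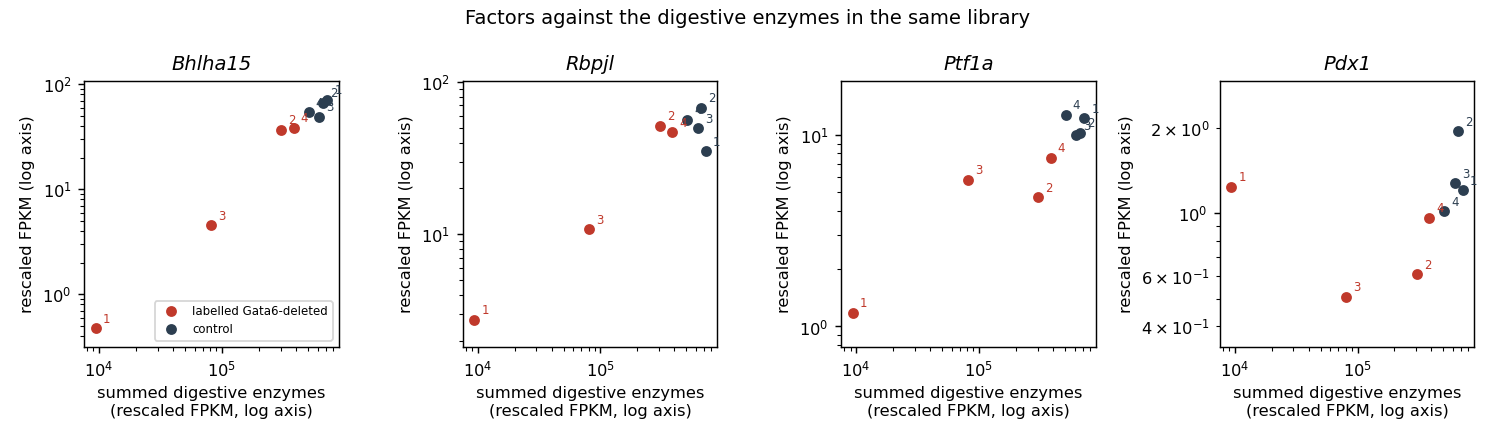
Level of Bhlha15, Rbpjl, Ptf1a and Pdx1 (rescaled FPKM, log axes) against the summed level of 20 digestive enzyme genes in the same library, with labelled Gata6-deleted and control libraries in different colours and each point numbered. On this deposited scale Bhlha15 orders the labelled libraries as the enzymes do, while Pdx1 is highest of the labelled libraries in library 1, where the enzymes are lowest.

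Other pancreatic transcription factors were listed for comparison, and 12 of 20 were expressed highly enough to test. Their median log2 fold change was -0.14, 9 were negative and 3 positive, and none passed. None was below every control in every labelled library, against 7.62% of all genes tested. At equal sums the median was 0.63 and 11 were positive, and at implied totals it was 0.91 and all 12 were positive, Xbp1 and Gata4 among them under both. The median of all genes tested was 0.86 and 1.15 under these scalings. Xbp1, the factor of the unfolded protein response, was 43.1, 137, 106 and 297 rescaled FPKM in labelled libraries 1 to 4, against 203, 190, 191 and 179 in controls 1 to 4 (log2 fold change -0.70, limma adjusted p = 0.363). Gata4, the close relative of Gata6, was 2.75, 9.75, 6.02 and 9.02 in the labelled libraries, against 10.2, 9.16, 11.7 and 9.59 in the controls (log2 fold change -0.61, limma adjusted p = 0.217). Creb3, a relative of Creb3l1, had a log2 fold change of 0.12 (limma adjusted p = 0.729).

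Markers of other cell types differed between the same libraries. The 12 fibroblast markers summed to 425 to 1478 rescaled FPKM in the labelled libraries and 252 to 362 in the controls, and the 12 myeloid markers to 230 to 859 in the labelled libraries and 123 to 214 in the controls. None of the members of these lists passed, and labelled libraries 1 and 3 were highest for both sums. The 12 adipocyte markers summed to 419 to 558 in the labelled libraries and 85.5 to 242 in the controls, and 4 of the 12 rose (Cd36, Cidec, Plin4 and Pck1), with log2 fold changes of 1.55, 1.95, 1.84 and 1.97 (limma adjusted p = 0.0268, 0.0363, 0.0423 and 0.00852). Of all genes tested, 0.219% passed as higher. The 10 lymphocyte markers summed to 92.8 to 410 in the labelled libraries and 43.4 to 176 in the controls, and the 12 duct markers to 195 to 402 in the labelled libraries and 158 to 206 in the controls. The 7 endothelial markers summed to 24.1 to 35.7 in the labelled libraries and 28.2 to 36.0 in the controls. Of 9 gut markers, Fabp2, Sis, Cdx2 and Apoa4 were at 0 in all 8 libraries. Median log2 fold changes over the members tested were 1.71 (adipocyte), 1.58 (myeloid), 1.18 (fibroblast), 0.93 (lymphocyte), 0.68 (islet), 0.41 (duct) and 0.10 (endothelial). Each was higher at equal sums and at implied totals, as was the median of all genes tested. The part of other cells in the lower levels of the factors was not tested.

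The genes whose pattern over the 8 libraries was most like each factor were sought among 3762 protein-coding genes averaging 5 rescaled FPKM or more, by Pearson's r of log2(rescaled FPKM + 1). The libraries share the gradient set by labelled libraries 1 and 3, so r is also given for the 6 others. For Ptf1a they were Spink3 (a trypsin inhibitor; r = 0.983, 0.921 over the 6), Cnp (0.981 and 0.911) and Hsd17b13 (0.977 and 0.900). For Rbpjl they were Nphs1 (0.996 and 0.942), Wbp1 (0.982 and 0.758) and Cbs (0.981 and 0.647). For Bhlha15 they were Slc39a5, a zinc transporter (0.997 and 0.961), Aqp12, an aquaporin of acinar cells (0.997 and 0.940), and Gamt, which makes creatine (0.996 and 0.949). High r was common: 659 of the 3762 genes exceeded 0.9 with Bhlha15, 342 with Ptf1a and 281 with Rbpjl. All r were taken on the deposited scale, where the scale of a library is shared by its genes and can raise r by itself. Correlations under another scaling were not computed. Nr5a2 was nearest to Preb, 2210021J22Rik and Manf (r = 0.995, 0.994 and 0.992, and 0.967, 0.946 and 0.890 over the 6), and Creb3l1 to Herpud1, Arcn1 and Atp5g1 (0.996, 0.996 and 0.995, and 0.984, 0.977 and 0.971 over the 6). Foxa2 was nearest to Rps24, Pfdn5 and Rpl36a (r = 0.996, 0.987 and 0.985, and 0.985, 0.961 and 0.978 over the 6), and Foxa3 to Ube2g2, Pop5 and Pdk1 (0.979, 0.977 and 0.972, and 0.908, 0.884 and 0.978 over the 6). Onecut1 (Rnf11, Pcnp and 2810407C02Rik, r = 0.908, 0.905 and 0.884, and 0.917, 0.989 and 0.795 over the 6) and Pdx1 (Sucla2, Zcrb1 and Rnf115, r = 0.915, 0.905 and 0.897, and 0.982, 0.919 and 0.867 over the 6) each had only 2 genes above 0.9.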

How the data were processed

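Poly(A) RNA of 8 pancreases had been sequenced on a Genome Analyzer IIx from TruSeq libraries made with 8 cycles of PCR and RNA of integrity 7.1 to 8.8, per the labels' protocols. Cufflinks 2.0.1, TopHat2 2.0.4, Bowtie, CASAVA 1.8 and the builds mm9 and NCBIM37 are named in the submitters' processing notes. Strand and gene model release were not given in the sources used. The authors deposited FPKM per gene as Cufflinks wrote them, with intervals and a status (36448 entries for 36432 gene IDs). FPKM were divided by 100000 (rescaled FPKM), which sets no fixed number of transcripts. Entries of an ID were summed. The 8 genes with the status HIDATA, listed at 0 where no estimate was made, were left out. Fragments were implied from the interval width, taken as 2 SD of a Poisson count to each side, and describe counting error only; 31 genes with the status FAIL stayed in the tests but out of implied totals and list sums. No count test was run.

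The 11860 genes that averaged 1 rescaled FPKM or more were tested with limma 3.58.1 (R 4.3.3, intensity trend, two-sided) on log2(rescaled FPKM + 1), with Benjamini-Hochberg adjustment over all genes and a threshold of 0.05. Positive differences are higher in the labelled libraries. Pair ratios had exact permutation tests (SciPy 1.17.1). The limma step was tested on simulated data (11860 genes, 50 of them changed at each size), where it recovered 6% of log2 changes of 0.5, 46% of 1, 80% of 2 and 94% of 3. The alternatives were other pseudocounts, minimums, scalings, limma options, title prefixes and libraries left out. Groups came from the genotype labels, and replicate numbers only from accession order. The medians of the lists under each scaling and the shares of genes under each alternative were added after the data were seen. Named genes were Gata6, the 9 factors, the members of each other list that passed (up to 4, otherwise the 3 of highest mean that could be tested), and for each factor the 3 genes of highest correlation; Gata4 and the overlapping genes were named in addition. The factors and the lists were chosen with earlier results of these data known. Gene coordinates are those of the files (mm9), counted from 1. Promoters are RefSeq windows on GRCm38.p6, matched by symbol, and no coordinate was converted.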

Additional observations from a re-analysis of the deposited data

Results flagged for a closer look

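The following values lay far from the other 3 libraries of their group by Dixon's criterion at 95%, which chance meets in about 1 of 20 groups. The criterion was applied in both groups to the 9 factors, to Gata6 and to the ratios of all 36 pairs. Chance alone would be likely to flag several values among so many. Nr5a2 was 5.94 rescaled FPKM in control 1, above the other controls at 4.53 to 4.67. Onecut1 was 0.779 rescaled FPKM in labelled library 1, above the other labelled libraries at 0.218 to 0.291, in the library with the highest islet marker sum. The log2 ratio of Ptf1a to Pdx1 was -0.0741 in labelled library 1, below 2.95 to 3.51 in the other labelled libraries. The log2 ratio of Rbpjl to Bhlha15 was -1.03 in control 1, the control whose title began with BKD, below 0.02 to 0.07 in the other controls. The log2 ratio of Foxa2 to Pdx1 was 0.99 in control 2, and that of Foxa3 to Pdx1 was 1.26 there, below 2.18 to 2.27 and 2.31 to 2.42 in the other controls. Control 2 had the highest Pdx1 of the 8 libraries, 1.94 rescaled FPKM from 21 implied fragments.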

How the results depend on the processing

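No paired analysis was possible because the labels give no replicate numbers that pair the libraries. The values as deposited gave 49 calls over all genes, against 15 with no expression minimum, 30 with quantile normalization, 17 at equal sums outside the enzymes, 6 at implied fragment totals, 3794 with library weights, 5 with the title prefix as a covariate, 16 among BKD titles, 91 among the other titles and 13 without labelled libraries 1 and 3; leaving out 1 library gave 10 to 2566, the most without labelled library 4. The median over the 9 factors, -0.68, was 0.10 at equal sums and 0.36 at implied totals. At equal sums Nr5a2 was 0.29, Foxa2 0.10, Foxa3 0.27, Onecut1 0.25 and Pdx1 0.21, and at implied totals Nr5a2 was 0.60, Foxa2 0.40, Foxa3 0.57, Onecut1 0.36, Creb3l1 0.30 and Pdx1 0.40. Onecut1 was 0.088 among BKD titles, and Foxa3 was 0.36 without labelled libraries 1 and 3. With library weights 6 factors passed in limma: Ptf1a (adjusted p = 0.0267), Rbpjl (0.0380), Bhlha15 (0.0200), Nr5a2 (0.0414), Foxa2 (0.0186) and Creb3l1 (0.0269). Their weighted log2 fold changes were not read out. The unweighted ones were -1.24 (Ptf1a), -1.50 (Rbpjl), -2.53 (Bhlha15), -0.50 (Nr5a2), -0.68 (Foxa2) and -0.89 (Creb3l1). Without labelled library 4, Ptf1a (-1.48, limma adjusted p = 0.0417), Foxa2 (-0.89, 0.0354) and Creb3l1 (-1.16, 0.0453) passed; with any 1 library left out these 3 ranged over -1.48 to -0.82, -0.89 to -0.57 and -1.16 to -0.62. The 2 factors lower without overlap were 0 at equal sums and at implied totals (0.337% and 0.371% of all genes), 5 among BKD titles (28.9%), 7 among the other titles (32.2%), 4 without labelled libraries 1 and 3 (10.5%), and 2 to 5 with 1 library left out (8.17% to 17.9%). The 3 separated pairs were 6 with a pseudocount of 1, 10 without labelled libraries 1 and 3 and 3 to 6 with 1 library left out; groups apart stay apart when libraries are removed, so counts with libraries removed can only grow and say nothing of stability. The difference between group means of Ptf1a, Rbpjl and Bhlha15 was negative in all 23 alternatives. Alternatives that changed only the expression minimum or the limma options, or added the title prefix as a covariate, could not change this difference. Coefficients adjusted for the prefix were not read out. The cause of the other shifts was not tested. The fragment numbers limit Onecut1 and Pdx1.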
